A study of Mus musculus with 4 samples.

Results

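The genes described here are 42 mouse genes of the type I interferon and antiviral response, taken from a list of symbols. Each was matched to the Ensembl identifiers of the count tables, and 38 of the 42 had at least 10 counts summed over the 4 libraries. The tables list 41388 genes in all, of which 13838 were tested for a change, and 34 of the 42 were among these. RNA-seq was done on Mnk3, a line of mouse origin with features of ILC3 (type 3 innate lymphoid cells), lymphocytes of mucosal tissue that make IL-22 and IL-17. In 2 libraries (control 1 and 2) the cells were untreated, and in the other 2 (stimulated 1 and 2) they had been given IL-1b and IL-23, each at 10 ng/ml, for roughly 16 h. The study is titled for regulation in cis of the IL-22 gene, and no interferon or virus was among the labelled treatments. All libraries come from the same line and were made from total RNA depleted of ribosomal RNA. Separate cultures are not labelled within a group, so the spread behind every p-value is that between libraries and may be technical.

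Type I interferons are secreted by cells that sense viral nucleic acid, and they act on the receptor pair Ifnar1 and Ifnar2. The kinases Jak1 and Tyk2 then activate transcription factors such as Stat2, which acts with Irf9 in the complex ISGF3. ISGF3 binds the interferon-stimulated response element before many antiviral genes, while interferon gamma acts through the gamma-activated site. The products of the antiviral genes sense viral RNA, degrade or sequester it, tag proteins with the ubiquitin-like protein Isg15 or block entry and budding of viruses.

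The core of the response element is shown for 6 of the genes that hold it, since their levels and changes, given below, differ widely. RefSeq promoter sequences (build GRCm38.p6, from 250 bases before to 50 after each start) were present for 31 of the 42 genes. Both strands were searched for the core of the element, GAAA followed by any 2 bases and GAAA, and overlapping copies were allowed. It was present in 16 of the 31 genes (51.6%) and in 1079 of all 27025 genes of the table (3.99%). The sequences run 5′ to 3′ on the gene's strand, with the core in capitals, or its reverse complement where it lies on the other strand. The coordinates are those of the printed stretches and not of the genes. The stretch before Isg15 is chr4:156200845-156200926 on the minus strand and has 3 overlapping cores. The stretches of Apol9a (chr15:77411094-77411169, minus strand), Apol9b (chr15:77729005-77729071, plus strand), Ifit1 (chr19:34640755-34640843, plus strand), Ifit3 (chr19:34583343-34583446, plus strand) and Bst2 (chr8:71537557-71537632, minus strand) have 2 each.
Isg15: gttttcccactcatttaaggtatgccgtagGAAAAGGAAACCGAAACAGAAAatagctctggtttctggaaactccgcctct
Apol9a: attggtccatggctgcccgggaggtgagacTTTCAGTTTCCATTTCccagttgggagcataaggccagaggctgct
Apol9b: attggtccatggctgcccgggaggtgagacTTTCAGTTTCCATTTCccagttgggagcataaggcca
Ifit1: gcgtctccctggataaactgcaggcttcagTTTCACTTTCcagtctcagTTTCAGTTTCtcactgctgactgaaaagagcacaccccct
Ifit3: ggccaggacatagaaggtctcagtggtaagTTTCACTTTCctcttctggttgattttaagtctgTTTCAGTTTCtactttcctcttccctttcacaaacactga
Bst2: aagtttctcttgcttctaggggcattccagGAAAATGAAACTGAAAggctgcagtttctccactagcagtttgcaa

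The Apol9a and Apol9b stretches were identical over the 67 bases printed for both, and the Ifit3 stretch was identical to that of its neighbour Ifit3b over all 104 bases. The core occurred among genes of every outcome of the test described below. It was found in 2 of 5 genes that rose (Ifih1 and Isg15), 2 of 4 that fell (Apol9a and Apol9b) and 7 of 15 that did not pass the test, and in 5 of 7 that were too low to test. The gamma-activated site, TTCNNNGAA, was present in 8 of the 31 genes (25.8%) and in 9.55% of all genes, and in Bst2 and Ifitm3 its match overlapped the response element core. An NF-kB-type motif, GGGA followed by any 4 bases and CC, was present in 8 of the 31 (25.8%) and in 22.9% of all genes. A match is a run of letters and not a measured binding site.

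As a group the genes did not change more often than other genes did. Of the 34 tested, 8 rose, 4 fell and 22 did not pass the test in edgeR at an adjusted p of 0.05. The 12 that passed are 35.3% of those tested, beside 35.8% of all genes, of which 17.5% were called higher and 18.3% lower. The groups were apart, with both stimulated libraries on one side of both controls, in 24 of the 34 (70.6%), 16 above and 8 below. Among all genes tested 70.7% were apart, 34.4% above and 36.3% below. A change of at least 1 on the log2 scale was seen in 8 of the 34 (23.5%), 4 in each direction, and in 22.4% of all genes. The median log2 change was 0.23 over the genes described here, with a range from -4.44 to 2.96, and -0.016 over all genes tested. Of the 34, 3 (Oas1a, Mx1 and Rsad2) passed the filter on low counts through 1 group only. Without stimulated 1 the number that fell was 2 in place of 4.

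**Figure D1:**
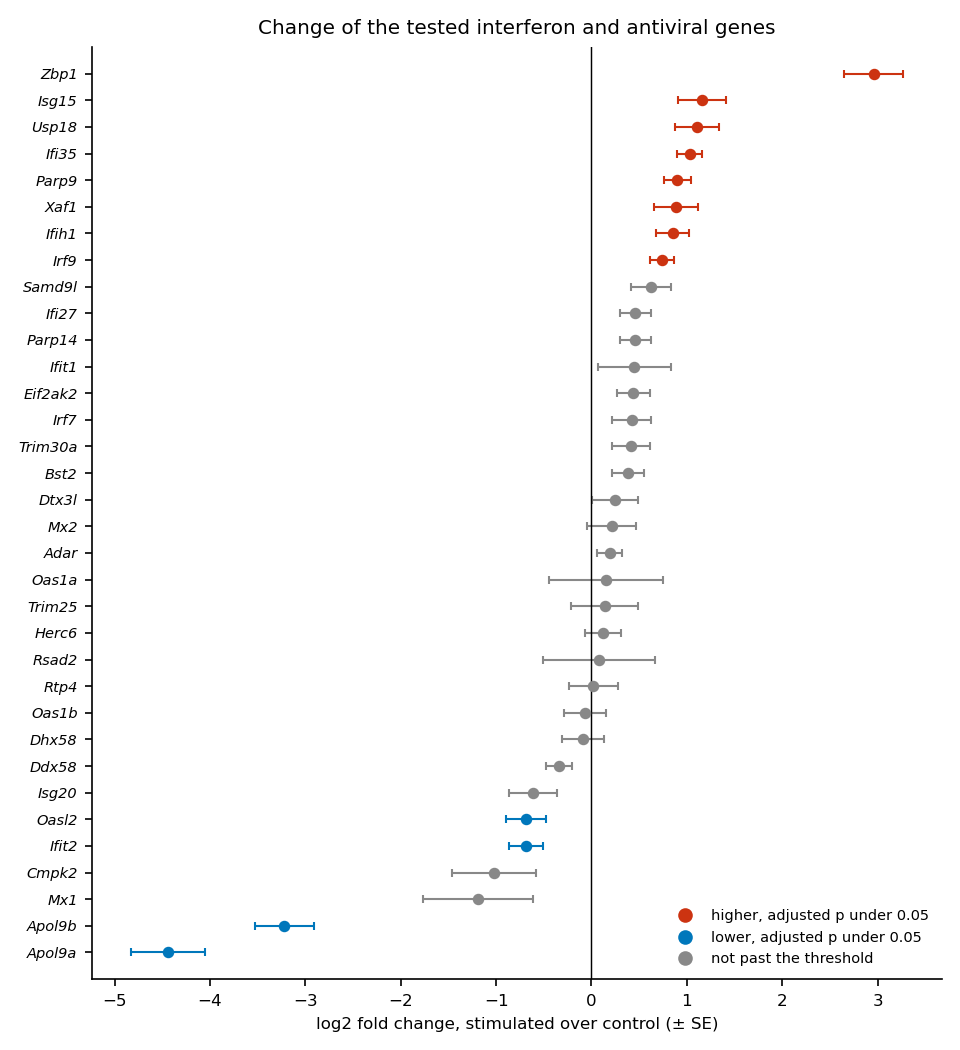
Log2 fold change of stimulated over control cells (horizontal axis) with its SE for each of the 34 genes tested in 2 libraries per group, ordered by change and coloured by edgeR call. Zbp1 stands at 2.96 and Apol9a and Apol9b at -4.44 and -3.22, while the other 31 lie between -1.19 and 1.16.

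Summed gene counts were 23047723 to 29078765 per library, and CPM here are counts scaled to library size with TMM factors. On that scale 3 counts correspond to 0.0995 to 0.131 CPM. Levels are mean ± SD over n = 2 libraries, and changes are log2 fold changes ± SE. Markers of ILC3 were detected, with at least 10 counts for 14 of 14 and summed levels of 5660 and 5781 CPM in controls and 6690 and 4883 CPM in stimulated cells. Markers of plasmacytoid dendritic cells, the main source of type I interferon in blood, reached 10 counts for 5 of 8. They summed to 87.1 and 126 CPM in controls and 223 and 228 CPM in stimulated cells, and the defining marker Siglech had 0, 0, 1 and 0 counts. The rise in the sum came from Irf8, at 43.8 and 84.5 CPM against 187 and 195 CPM. Tcf4 (41.6 and 39.6 CPM against 35.5 and 31.4 CPM) and Pacsin1 (16 and 31 counts against 3 and 7) were lower in both stimulated libraries. Ccr9 overlapped between groups, and Cox6a2 had 3 and 5 counts against 5 and 7. Macrophage, monocyte and conventional dendritic cell markers reached 10 counts for 8 of 12 and summed to 34.1 and 61.3 CPM against 17.4 and 27.3 CPM, with Lyz2 and Cd14 at 0 counts. Xcr1 made up most of that sum, at 26.1 and 54 CPM in controls and 10.8 and 14 CPM in stimulated cells. Adgre1 went the other way, from 2 and 0 counts to 44 and 187, and was called higher (log2 change 7.02 ± 1.32, edgeR adjusted p 0.0161). Adgre1 passed the filter on low counts through the stimulated group only. NK cell markers (5 of 6, Klra8 at 0) summed to 212 and 230 CPM against 86.4 and 98.1 CPM, most of it from Klrb1c at 164 and 182 CPM against 38.9 and 49.6 CPM. The libraries titled rep1 stood apart in Gzma and Prf1, genes of cytotoxic granules. Gzma had 193 counts in control 1, 320 in stimulated 1 and 0 in the other 2 libraries, and Prf1 had 178 and 338 counts in control 1 and stimulated 1 and 7 and 8 in control 2 and stimulated 2. T cell markers (7 of 8, Cd8b1 at 0) summed to 26.3 and 21.5 CPM in controls and 17.6 and 13.4 CPM in stimulated cells. B cell markers (3 of 5) summed to 3.12 and 3.79 CPM against 1.66 and 1.93 CPM. Stromal and epithelial markers (3 of 8) summed to 8.49 and 9.6 CPM against 1.23 and 2.36 CPM. In bulk RNA, fewer cells expressing a gene and less of its RNA per cell cannot be told apart, and the part of these markers in the results was not tested.

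The type I and type III interferon genes had almost no counts, while Ifnar1 and Ifnar2 had many. Of 20 type I and type III interferon genes found in the tables, 15 had 0 counts in all 4 libraries, Ifnb1 among them, and none passed the filter for testing. Stretches that these 20 genes share with other genes were not examined, so any effect of shared reads on their counts was not tested. The highest count of any in a library was 6, for Ifnz, which had 6 and 2 counts in controls and 3 and 0 in stimulated cells. Interferon gamma (Ifng), the type II interferon, had 6 and 4 counts in controls and 2042 and 1551 in stimulated cells. Its level was 0.199 and 0.137 CPM against 80.8 and 67.9 CPM, so that the groups lay far apart (log2 change 8.75 ± 0.26, edgeR adjusted p 0.000103). Both controls were under the 0.362 CPM cutoff of the filter on low counts, so Ifng entered the test through the stimulated group only. Ifnar1 was at 125 and 124 CPM in controls and 132 and 118 CPM in stimulated cells, with overlapping groups. Ifnar2 was at 49.9 and 50.9 CPM in controls and 82.3 and 69.3 CPM in stimulated cells and rose by 0.59 ± 0.15 (edgeR adjusted p 0.0206). Ifngr1, a chain of the interferon gamma receptor, was at 356 and 424 CPM against 129 and 142 CPM and fell by 1.52 on the log2 scale (SE 0.16, edgeR adjusted p 0.000878).

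Of the receptor, kinase and STAT genes, 4 of 10 tested rose and 2 fell, with a median change of 0.48. That is 60% called, beside 35.8% of all genes tested. This list and those below were chosen with earlier results of these data known, so their shares describe and do not test. Stat2 was at 37.2 and 25.9 CPM in controls and 81.6 and 52.8 CPM in stimulated cells and rose by 1.09 ± 0.27 (edgeR adjusted p 0.0238). Both stimulated libraries stood above both controls. The kinase Jak2, used by the interferon gamma receptor, was at 84.1 and 105 CPM against 219 and 239 CPM and rose by 1.28 ± 0.16 (edgeR adjusted p 0.00173). Tyk2 was at 203 and 223 CPM against 135 and 151 CPM and fell by 0.58 on the log2 scale (SE 0.14, edgeR adjusted p 0.02). Jak1 did not pass the test, at 298 and 291 CPM against 282 and 260 CPM.

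The 3 genes of signalling and transcription among the 42 were all higher in both stimulated libraries than in both controls, and 2 of them passed the test. Among all genes tested 34.4% lay above in this way and 35.8% were called, so 3 genes say little as a group. Irf9, the DNA-binding subunit of ISGF3, lies at chr14:55603571-55610030 on the plus strand. It had 2467 and 2247 counts in controls and 3176 and 3159 in stimulated cells. The level was 79.3 ± 3.61 CPM in controls and 132 ± 8.87 CPM in stimulated cells, a 1.66-fold rise (log2 change 0.74 ± 0.13, edgeR adjusted p 0.00673). Irf9 and its partner Stat2 thus both rose in the edgeR test. Usp18, a protease that removes Isg15 from proteins and also restrains signalling at Ifnar2, lies at chr6:121245906-121270916 on the plus strand. Its level was 17.2 and 14.5 CPM in controls and 41.1 and 27.4 CPM in stimulated cells, a rise of 2.16-fold (log2 change 1.11 ± 0.23, edgeR adjusted p 0.01). Stimulated 1 was the higher of the stimulated libraries, and both lay above the controls. Irf7, the regulatory factor that amplifies interferon production, was at 21.7 and 15.2 CPM against 25.1 and 24.5 CPM and did not pass the test (log2 change 0.42 ± 0.20, edgeR adjusted p 0.149).

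Of the 7 other regulatory factors tested, 2 rose and 5 did not pass the test, with a median change of 0.83. Those called are 28.6%, beside 35.8% of all genes tested. Irf1, a factor induced by interferon gamma, was at 78.4 and 63.0 CPM in controls and 248 and 182 CPM in stimulated cells (log2 change 1.61 ± 0.20, edgeR adjusted p 0.00178). Irf8, a factor of myeloid and dendritic cell development, was at 43.8 and 84.5 CPM against 187 and 195 CPM (log2 change 1.57 ± 0.31, edgeR adjusted p 0.0142). Controls differed from each other for Irf8 and stayed below both stimulated libraries for both genes. Irf4, named after its values were seen, was at 0.796 and 0 CPM in controls and at 72.7 and 19.3 CPM in stimulated cells and did not pass (edgeR adjusted p 0.0604). Like Ifng, Irf4 entered the test through the stimulated group only.

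Among the 6 sensors, Zbp1 and Ifih1 rose and the other 4 did not pass the test. That is 33.3% called, beside 35.8% of all genes tested. Zbp1, which binds Z-form nucleic acid and can start necroptosis, lies at chr2:173206612-173218923 on the minus strand. It had 49 and 78 counts in controls and 367 and 431 in stimulated cells, or 1.63 and 2.66 CPM against 14.5 and 18.9 CPM. The lowest stimulated library was well above the highest control, and the mean was 7.77-fold higher (log2 change 2.96 ± 0.31, edgeR adjusted p 0.000904), the largest rise among the 34 genes. Per kilobase of listed length its level went from 0.608 to 4.73 CPM. Ifih1, the sensor of long double-stranded RNA also called MDA5, lies at chr2:62595798-62646255 on the minus strand. It was at 59.0 and 52.7 CPM in controls and 113 and 87.9 CPM in stimulated cells, 1.8-fold higher (log2 change 0.85 ± 0.17, edgeR adjusted p 0.00901).

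Its relative Ddx58, the RNA sensor RIG-I, moved the other way without passing the test. Ddx58 was at 104 CPM in each control and at 77.1 and 87.3 CPM in stimulated cells (log2 change -0.34 ± 0.14, edgeR adjusted p 0.0951). The groups did not overlap, and both stimulated libraries were below the controls. Dhx58, the third RIG-I-like helicase, was at 8.33 and 8.16 CPM against 7.09 and 8.45 CPM, with overlapping groups. Eif2ak2, the kinase PKR that stops translation on double-stranded RNA, was at 76.0 and 91.2 CPM against 101 and 125 CPM (log2 change 0.44 ± 0.17, edgeR adjusted p 0.0843). Adar, which edits adenosine in double-stranded RNA, was at 85.5 and 77.4 CPM against 92.7 and 93.4 CPM (log2 change 0.19 ± 0.13, edgeR adjusted p 0.302). Both were higher in each stimulated library than in each control without passing the test. Of all genes tested 34.4% lay above in this way.

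Of 17 other tested genes of nucleic acid sensing, 1 rose, 2 fell and 14 did not pass the test. The share called was 17.6%, beside 35.8% of all genes tested. Samhd1, which depletes nucleotides that viruses need for DNA synthesis, was at 59.4 CPM in each control and at 152 and 148 CPM in stimulated cells (log2 change 1.34 ± 0.13, edgeR adjusted p 0.000738). Unc93b1, which brings Toll-like receptors to endosomes, was at 88.4 and 74.6 CPM against 55.6 and 52.1 CPM and fell by 0.60 on the log2 scale (SE 0.15, edgeR adjusted p 0.0203).

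Most genes of the OAS family, whose enzymes respond to double-stranded RNA, were close to 0, and of the 7 listed 3 were tested. Oasl2, an OAS-like protein, lies at chr5:114896936-114912234 on the plus strand. It had 18.0 and 13.7 CPM in controls and 10.1 and 9.5 CPM in stimulated cells, 1.62-fold lower (log2 change -0.69 ± 0.21, edgeR adjusted p 0.0386). Both stimulated libraries lay below both controls, but the call was lost without control 1 (edgeR adjusted p 0.221), stimulated 1 (0.0953) or stimulated 2 (0.146). Oas1a had 10 and 28 counts in controls and 13 and 21 in stimulated cells, and Oas1b had 281 and 227 against 198 and 193, with overlapping groups in CPM for both. Oas1g had 0 and 0 counts against 1 and 1, Oas2 7 and 4 against 2 and 0, Oas3 2 and 1 against 2 and 1, and Oasl1 1 and 4 against 3 and 3. These counts are too few to show a difference. Of the 50-base stretches of Oas1a exons 57.6% also occur in other genes, mainly Oas1g, so its count is uncertain.

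The Ifit genes, whose proteins bind viral RNA and hinder its translation, differed widely in level, with control means of 21.7 CPM per kilobase for Ifit2, 0.929 for Ifit1 and 0.126 for Ifit3. Ifit2 lies at chr19:34550694-34576419 on the plus strand and had 73.4 and 96.9 CPM in controls and 49.2 and 56.1 CPM in stimulated cells. It was 1.62-fold lower in stimulated cells (log2 change -0.69 ± 0.18, edgeR adjusted p 0.0226), with the groups apart. The call was lost without control 2 (edgeR adjusted p 0.0944) or stimulated 1 (0.0938). Ifit1 had 53 and 93 counts in controls and 67 and 94 in stimulated cells, and the groups overlapped (log2 change 0.45 ± 0.38, edgeR adjusted p 0.4). Ifit3 had 6 and 7 counts against 7 and 9, and Ifit3b had 2 and 1 against 1 and 1, both too low to test. The promoters of Ifit1 and Ifit3, printed above, hold 2 response element cores each. Of the 50-base stretches of Ifit3, 51.2% occur in other genes, mainly Ifit3b.

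Of the 4 tested genes of the Mx and viperin group, 0 passed the edgeR test, 0 had an unadjusted p under 0.05, and DESeq2 and limma-voom called 0. In edgeR 35.8% of all genes tested were called. Mx1, a dynamin-like GTPase that traps viral nucleoproteins in the nucleus, had 19 and 41 counts in controls and 7 and 14 in stimulated cells (log2 change -1.19 ± 0.58, edgeR adjusted p 0.156). Its relative Mx2 had 185 and 141 counts against 141 and 162. Rsad2, the antiviral enzyme viperin, had 16 counts in each control and 7 and 20 in stimulated cells. Cmpk2, a nucleotide kinase encoded beside Rsad2, had 57 and 45 counts against 13 and 27 (log2 change -1.02 ± 0.44, edgeR adjusted p 0.117). Cmpk2 and Mx1 were lower in both stimulated libraries than in both controls, and Mx2 and Rsad2 overlapped between groups. Of all genes tested 36.3% lay below in this way.

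**Figure D2:**
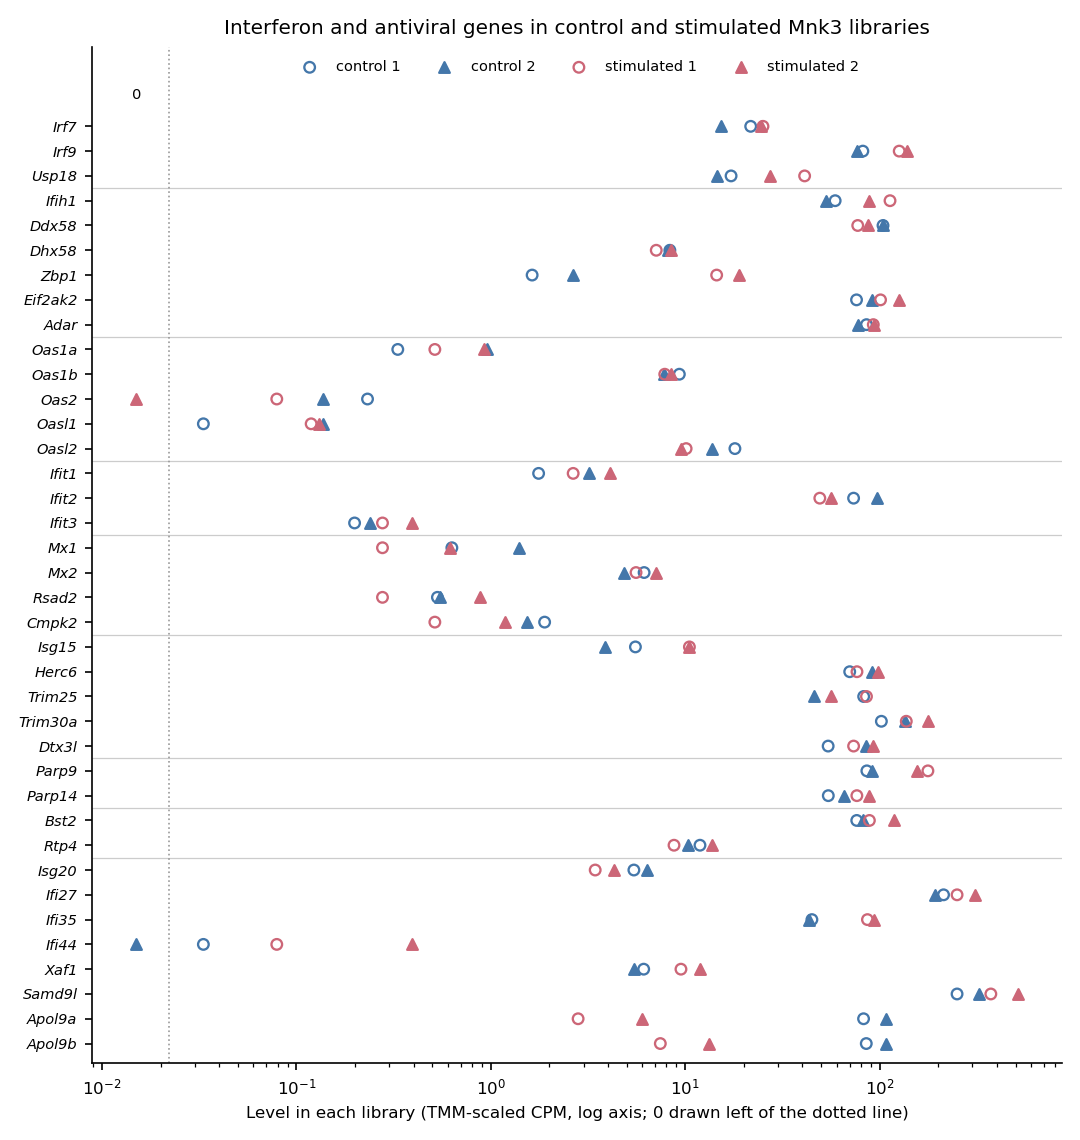
TMM-scaled CPM (log axis) in each of the 4 libraries, with 0 drawn left of the dotted line. The 38 genes with at least 10 counts summed over the 4 libraries are in the order of their roles. Zbp1 and Ifi35 lie to the right in stimulated cells and Apol9a and Apol9b far to the left, while Mx1, Rsad2, Ifit3, Oas2 and Oasl1 do not exceed 1.4 CPM in any library.

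Isg15 rose, and the ubiquitin ligases around it did not pass the test. Isg15, the ubiquitin-like protein joined to targets during the antiviral response, lies at chr4:156199424-156200818 on the minus strand. It had 167 and 113 counts in controls and 264 and 240 in stimulated cells, or 5.54 and 3.86 CPM against 10.5 and 10.5 CPM. Both stimulated libraries were above both controls, and the mean was 2.23-fold higher (log2 change 1.16 ± 0.25, edgeR adjusted p 0.0131). The enzymes that attach Isg15 were looked at after their values were seen. Ube2l6, its conjugating enzyme, was at 15.0 and 12.6 CPM in controls and 159 and 79.5 CPM in stimulated cells (log2 change 3.11 ± 0.37, edgeR adjusted p 0.00327). Uba7, its activating enzyme, was at 88.5 and 79.2 CPM against 61.1 and 63.7 CPM and fell by 0.43 on the log2 scale (SE 0.14, edgeR adjusted p 0.0488). Conjugating and activating enzymes thus went in opposite directions.

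Herc6, the main ligase for Isg15 in mice, was at 70.1 and 91.1 CPM in controls and 76.4 and 98.5 CPM in stimulated cells, with overlapping groups (log2 change 0.12 ± 0.19, edgeR adjusted p 0.667). Trim30a, a ligase that dampens Toll-like receptor signalling, was at 102 and 135 CPM against 137 and 177 CPM (log2 change 0.41 ± 0.20, edgeR adjusted p 0.152). Trim25, the ligase that acts with RIG-I, was named after its values were seen, since it followed the kind of library title rather than the treatment. It was at 82.7 and 85.5 CPM in the control and stimulated libraries titled rep1 and at 45.8 and 55.9 CPM in those with no number. Dtx3l, the ligase partner of Parp9, was at 54.3 and 84.6 CPM against 73.4 and 92.3 CPM, again with overlap. Parp9 itself, at chr16:35938470-35972605 on the plus strand, was at 85.9 and 91.8 CPM in controls and 177 and 155 CPM in stimulated cells. The groups were far apart, and the rise was 1.86-fold (log2 change 0.90 ± 0.14, edgeR adjusted p 0.00378). Exons of Parp9 and Dtx3l overlap by 458 bases on opposite strands, and the sources used here do not say whether counting used strand. Parp14, another ADP-ribosyltransferase, was at 54.4 and 65.3 CPM against 76.3 and 88.6 CPM and did not pass the test (log2 change 0.46 ± 0.16, edgeR adjusted p 0.0596).

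Ifi27 and Bst2, the most abundant of the tested genes per kilobase in controls, and Samd9l did not pass the test. Ifi27, a small mitochondrial protein, had the highest control level of the tested genes described here at 138 CPM per kilobase, above 97.9% of all genes tested. In CPM it was at 213 and 193 in controls and 250 and 309 in stimulated cells (log2 change 0.46 ± 0.16, edgeR adjusted p 0.0625). Bst2, or tetherin, which holds budding virus at the cell surface, was at 76.2 and 82.5 CPM against 88.5 and 119 CPM (log2 change 0.38 ± 0.17, edgeR adjusted p 0.129). Samd9l, an inhibitor of poxvirus replication, was at 250 and 325 CPM against 373 and 514 CPM (log2 change 0.62 ± 0.21, edgeR adjusted p 0.0589). In each of the 3 both stimulated libraries were above both controls, as in 34.4% of all genes tested. The other membrane genes were Rtp4, with 359 and 301 counts against 221 and 314 and overlapping groups, and Ifitm3, which blocks entry of viruses from endosomes and had 0 counts in all 4 libraries.

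**Figure D3:**
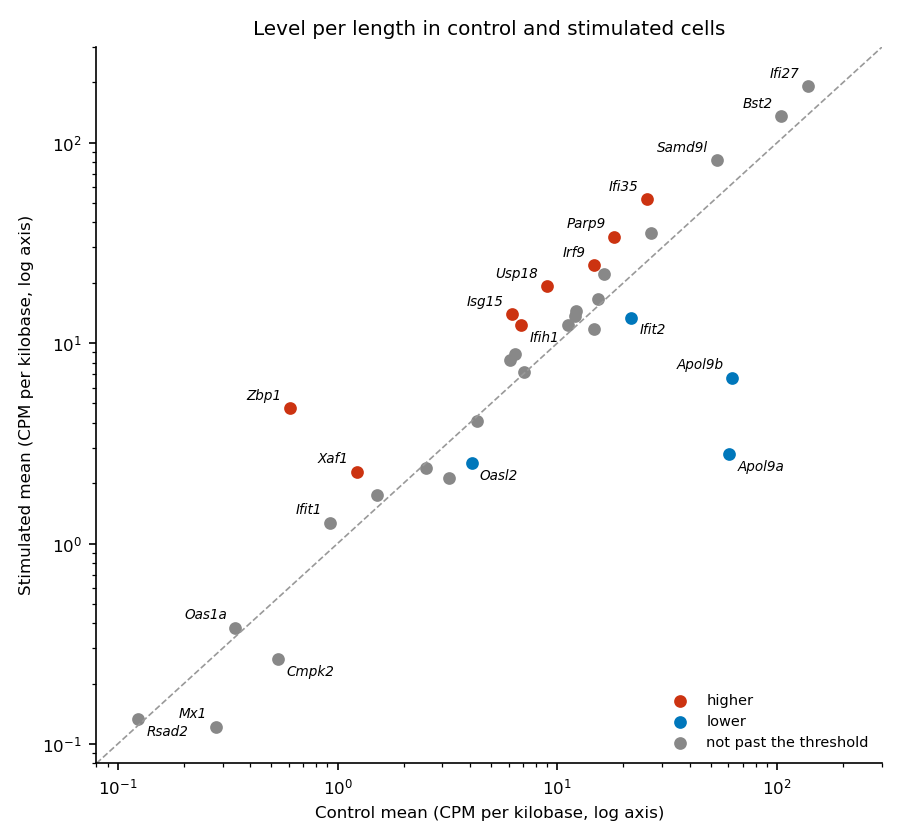
Mean level in stimulated against control cells, in CPM per kilobase of listed length (both axes log), for the 34 tested genes, 2 libraries per group, coloured by edgeR call, with a dashed line of equal level. Ifi27 and Bst2 are the highest in controls at 138 and 104 CPM per kilobase, and Apol9a and Apol9b fall from 60.5 and 62.4 to 2.8 and 6.72.

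The genes spanned a wide range of level in untreated cells. Over the 38 with at least 10 counts, the control level ran from 0.00271 to 138 CPM per kilobase, with a median of 6.64. Over the 34 tested the median was 8 CPM per kilobase, beside 7.6 for all genes tested, and 14 of all 42 were under 1 CPM per kilobase. Untreated Mnk3 cells thus held transcripts of some antiviral genes at levels usual for a tested gene, and of others almost none.

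Of the 6 remaining genes, Ifi35 and Xaf1 rose and Apol9a and Apol9b fell. With Ifi27 and Samd9l, which belong to the same group, 4 of 7 tested genes were called (57.1%), beside 35.8% of all genes tested. Ifi35, a regulator of antiviral signalling, lies at chr11:101448407-101458698 on the plus strand and was at 44.8 and 43.1 CPM in controls and 86.5 and 93.6 CPM in stimulated cells. It was 2.05-fold higher (log2 change 1.03 ± 0.13, edgeR adjusted p 0.00197), with little spread in either group. Xaf1, a promoter of apoptosis, lies at chr11:72301629-72313733 on the plus strand and was at 6.11 and 5.43 CPM against 9.5 and 11.9 CPM. It was 1.85-fold higher (log2 change 0.89 ± 0.23, edgeR adjusted p 0.0228), and the call was lost without control 2 (edgeR adjusted p 0.0823) or stimulated 2 (0.102). Isg20, an RNA exonuclease, was at 5.44 and 6.32 CPM against 3.44 and 4.29 CPM and did not pass the test (log2 change -0.61 ± 0.25, edgeR adjusted p 0.108). Ifi44 had 1 and 0 counts in controls and 2 and 9 in stimulated cells and was too low to test.

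The 2 apolipoprotein L genes had the largest changes of all 34. Apol9a lies at chr15:77403789-77411080 on the minus strand and Apol9b at chr15:77729121-77736381 on the plus strand. In controls the pair had nearly the same level, with 82.6 and 108 CPM for Apol9a and 85.3 and 108 CPM for Apol9b. In stimulated cells Apol9a was at 2.81 and 6.0 CPM and Apol9b at 7.44 and 13.3 CPM, so every stimulated library was far below every control. Apol9a was 21.7-fold lower (log2 change -4.44 ± 0.39, edgeR adjusted p 0.00128). Apol9b was 9.31-fold lower (log2 change -3.22 ± 0.31, edgeR adjusted p 0.00109). Within the libraries titled rep1 the changes were -4.83 and -3.50, and within those with no number -4.15 and -3.00. Without stimulated 2 the change of Apol9a was -5.05. Of the 50-base stretches of Apol9b 52.3% occur in other genes, mainly Apol9a, and of those of Apol9a 16.5%, so the division of counts between them is uncertain.

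Of 14 tested genes that restrain interferon signalling, 3 rose, 4 fell and 7 did not pass the test, with a median change of -0.14. That is 50% called, beside 35.8% of all genes tested. Socs1, which blocks Jak kinases, was at 24.2 and 22.0 CPM in controls and 281 and 213 CPM in stimulated cells (log2 change 3.42 ± 0.19, edgeR adjusted p 0.000183). Socs3 was at 35.1 and 37.3 CPM against 236 and 186 CPM (log2 change 2.54 ± 0.17, edgeR adjusted p 0.000267). Cish, a further member of the SOCS family, was at 2.92 and 2.29 CPM against 43.0 and 32.8 CPM (log2 change 3.86 ± 0.23, edgeR adjusted p 0.00023). These 3 genes, the only ones of the SOCS family on this list, were several times higher in both stimulated libraries. Among those that fell, the phosphatase Ptpn6 was at 591 and 582 CPM against 276 and 251 CPM (log2 change -1.15 ± 0.14, edgeR adjusted p 0.00171).

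Among 72 other interferon-stimulated genes tested, 16 rose, 14 fell and 42 did not pass the test, with a median change of 0.04. The share called was 41.7%, beside 35.8% of all genes tested. Nlrc5, Cxcl9 and Cxcl10 were among those that rose with the smallest adjusted p. Nlrc5, the transactivator of MHC class I genes, was at 51.8 and 42.2 CPM in controls and 254 and 219 CPM in stimulated cells (log2 change 2.33 ± 0.17, edgeR adjusted p 0.000314). The chemokine Cxcl10 was at 5.81 and 4.03 CPM against 70.6 and 58.2 CPM (log2 change 3.71 ± 0.23, edgeR adjusted p 0.000239). Cxcl9, a chemokine induced mainly by interferon gamma, had 2 counts in each control and 208 and 127 in stimulated cells. Like Ifng, Cxcl9 entered the test through the stimulated group only. Those that fell with the smallest adjusted p were Shisa5, Rnf213, Herc3 and Epsti1. Shisa5 was at 1107 and 1152 CPM against 363 and 371 CPM (log2 change -1.62 ± 0.15, edgeR adjusted p 0.00064), and Rnf213, a large ubiquitin ligase, at 406 and 414 CPM against 113 and 153 CPM (log2 change -1.62 ± 0.18, edgeR adjusted p 0.00116). Ly6e, which had the highest CPM of those that did not pass, was at 1922 and 1497 CPM against 1911 and 1581 CPM.

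Of the 6 genes of interferon gamma and its transactivators, 3 rose (Ifng, Irf1 and Nlrc5) and 2 fell (Ifngr1 and Ciita), with a median change of 1.09. Those called are 83.3% of this short list, beside 35.8% of all genes tested. Ifng entered the test through the stimulated group only, and the list was chosen with earlier results of these data known. This share therefore describes the list and does not test it. Ciita, the transactivator of MHC class II genes, was at 68.9 and 74.3 CPM in controls and 30.2 and 35.5 CPM in stimulated cells (log2 change -1.12 ± 0.15, edgeR adjusted p 0.00218). Over all pathway lists, with each gene counted once, 119 of 173 genes were tested, 25 rose and 23 fell. The share called was 40.3%, beside 35.8% of all genes. The median change was 0.03, and without stimulated 1 the number that fell was 14 in place of 23.

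**Figure D4:**
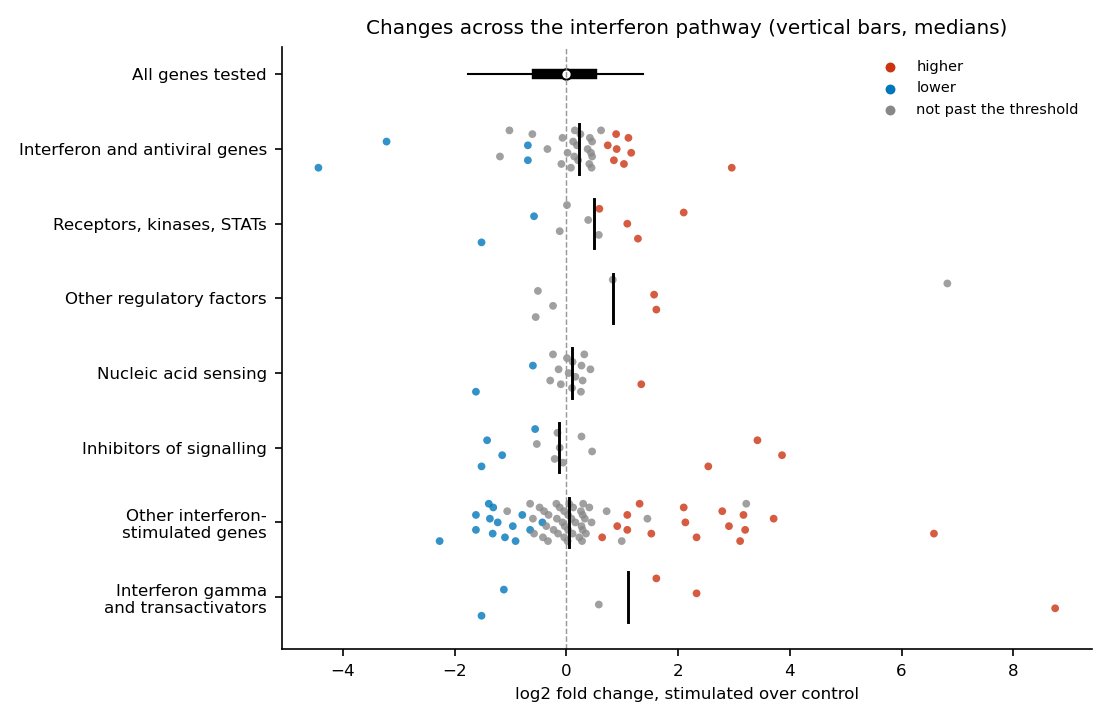
Log2 fold change of stimulated over control cells (horizontal axis) for each tested gene of the interferon and antiviral genes and of the pathway lists, coloured by edgeR call, with vertical bars for medians. The top row gives all 13838 genes as percentiles 5 to 95 (thin line), 25 to 75 (thick line) and the median (circle). Medians of the lists lie between -0.14 and 1.09. Ifng stands apart at 8.75 and entered the test through the stimulated group only.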

How the data were processed

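RNA-seq of Mnk3 cells was deposited as 1 table per library. The submitters' processing notes name STAR, Subread and featureCounts. The sources used here do not state their roles, the genome build, the annotation release or the use of strand. Counts are raw whole numbers per gene, as deposited. The deposited CPM is that count scaled to the library's summed counts, and the RPKM deposited by the authors is that CPM per kilobase of listed length. Both were recomputed from the counts and not used further. Gene coordinates are those of the count tables.

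Symbols came from GENCODE M21, with 40254 of 41388 identifiers matched. The interferon and antiviral genes and the pathway lists were chosen with earlier results of these data known. Of 176 pathway names 173 were found. Every library was used. Stimulated and control libraries were compared in edgeR 4.0.16 (R 4.3.3, limma 3.58.1) by its quasi-likelihood test, with filterByExpr, TMM factors, robust dispersion and no covariate but treatment. Benjamini-Hochberg adjustment ran over 13838 genes, with a threshold of 0.05. The SE is the absolute change over the square root of F. The common biological coefficient of variation was 18.4%. The steps were tested on simulated counts with the same dispersion for every gene and no effect of library title. That setting is simpler than these data, so it does not show how reliable the calls are here. Depth was 23047723 to 29078765 counts, and 3 counts were taken as the floor, for counting error only.

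Library 1 of each group carries rep1 in its title and library 2 no number. Values in every library are given for each gene past the threshold and the 8 of highest mean CPM not past it, and every listed gene is accounted for. For the other lists any gene past the threshold may be named, and of the other interferon-stimulated genes the 4 risers and 4 fallers of lowest adjusted p and the 2 of highest CPM not past it. Alternatives were DESeq2 1.42.0, limma-voom, 3 scalings, 3 filters, an adjusted p of 0.01, glmTreat against a log2 fold of 1, no robust estimation, each library left out in turn and a replicate block from the titles. A planned comparison of protein sequences was not run, and a few genes of the lists are not reported here.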

Additional observations from a re-analysis of the deposited data

How the results depend on the processing

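All 12 calls among the interferon and antiviral genes held under the 3 other scalings, the 3 other filters, DESeq2, limma-voom, no robust estimation and the replicate block. At an adjusted p of 0.01 the genes that rose and fell numbered 5 and 2, and by glmTreat against a log2 fold of 1 they numbered 1 (Zbp1) and 2 (Apol9a and Apol9b). Without a filter beyond 1 count 13 rose. DESeq2 also called Samd9l, Ifi27 and Parp14 higher (adjusted p 0.0168, 0.0267 and 0.0378). The adjusted p of 0.01 left 1244 of all genes higher and 1324 lower, and 14 pathway genes lower. By glmTreat 390 and 527 of all genes and 15 and 5 pathway genes were called higher and lower. With the kind of title as a replicate block, 16 and 8 of the interferon and antiviral genes, 3986 and 4000 of all genes and 47 pathway genes higher were called. Same-titled libraries deviated together (r 0.490 across genes), but the labels state no pairing, and with 2 pairs this block leaves few degrees of freedom.

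With 1 library left out at a time, 7 to 9 of the interferon and antiviral genes rose and 2 to 4 fell, 1593 to 2001 of all genes were higher and 1665 to 2035 lower, and 22 to 26 pathway genes were higher and 14 to 21 lower. In these fits the lone library is assumed to vary as the other group does. Total count scaling moved the median change of all genes from -0.016 to -0.108 and that of the interferon and antiviral genes from 0.23 to 0.14. The share of calls that were higher went from 48.8% to 40.9% of all genes. Directions that turned all belong to genes that did not pass the test. With 1 library left out, the change ran from -0.19 to 0.04 for Dhx58 (above 0 without stimulated 1), from -0.42 to 1.09 for Oas1a (below 0 without control 1, and -0.29 without stimulated 2) and from -0.20 to 0.07 for Oas1b (above 0 without control 1). It ran from -0.92 to 0.70 for Rsad2 and from -0.32 to 0.31 for Rtp4 (lowest without stimulated 2, and -0.08 for Rtp4 without control 2). It ran from -0.06 to 0.32 for Herc6 and from -0.03 to 0.61 for Dtx3l (lowest without control 1, and -0.05 for Herc6 without stimulated 2), and from -0.23 to 0.62 for Trim25 (below 0 without control 2, and -0.20 without stimulated 1). Rsad2 was at -0.00 under total count scaling and -0.13 in limma-voom. Rtp4 was at -0.03 under upper quartile scaling, -0.07 under total count scaling, -0.02 in limma-voom and -0.01 with the block. For these turns the cause was not tested. Depth limits what can be said of the 8 genes under the filter, whose counts were 0 to 9 per library.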
